A study of Drosophila melanogaster with 12 samples.

Results

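Genes of peptidoglycan recognition and of antimicrobial peptides were followed in adult heads of Drosophila melanogaster. The rule listed 9 genes and took each probe set whose platform annotation gave a single symbol that was among them. It found 7 genes with 1 probe set each, out of 10843 named genes on the array. They were PGRP-SC2 (CG14745), PGRP-SB1 (CG9681), PGRP-LB (CG14704), BomS2 (CG18106), Drs (CG10810), Mtk (CG8175) and Def (CG1385). The other 2 names, PGRP-SA and PGRP-SD, had no such probe set and were not analysed here.

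Peptidoglycan is the mesh of the bacterial cell wall, and flies detect it with peptidoglycan recognition proteins. Some of these proteins are receptors that start the Imd or Toll pathway, whose NF-kappaB factors switch on genes of antimicrobial peptides in the fat body. Others are amidases, which cut peptidoglycan into fragments that stimulate Imd less. PGRP-SC2, PGRP-SB1 and PGRP-LB encode amidases. Drs encodes the antifungal peptide drosomycin, Mtk metchnikowin, Def defensin, which acts on Gram-positive bacteria, and BomS2 a short peptide of the Bomanin family that is induced through Toll.

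All flies were y w; tim01, so they carried mutations of the yellow and white genes and lacked the clock protein TIMELESS. No wild-type sample was analysed here. After 3 days of entrainment to 12 h light and 12 h dark, heads were collected at 4 h steps through a last light-dark day (LD) and the next day in constant darkness (DD). Each of the 12 arrays held a pool of about 100 to 200 heads. ZT and CT count hours from lights-on and from the corresponding hour in darkness. The arrays formed 4 groups of 3. LD light held ZT2, ZT6 and ZT10, and LD dark held ZT14, ZT18 and ZT22. The same clock hours in constant darkness, CT2 to CT10 and CT14 to CT22, made up the DD subjective day and the DD subjective night. Each time had 1 array, so the spread within a group mixes array error with change over 8 h, and p-values measure only that spread. Lighting, day of collection and age of the flies cannot be told apart between LD and DD.

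Levels are given as RMA output in log2 units, where a difference of 1 is a doubling. The array medians lay between 4.0 and 4.10 and the upper quartiles between 5.19 and 5.28, with CT2 the lowest array in both. The means of 6 members were above every upper quartile and that of PGRP-LB, 5.18, was between the medians and the upper quartiles. The strain's tim transcript ranged over 0.345 across the arrays and y over 0.23. Of 10 neuron and photoreceptor markers 6 were measured, of which trp (9.23), Rdl (5.29), nSyb (4.84) and brp (4.55) lay above the array medians and elav (3.41) and para (3.01) below them. The midgut markers, 23 of 24 measured, had list means per array between 4.76 and 6.96 in these head samples. A body-tissue score, which averages the medians of 3 centred marker lists (midgut, thorax muscle, male reproductive tract), ran from -0.47 to -0.17 in LD light, -0.45 to 0.23 in LD dark, -0.48 to 0.08 in DD subjective day and 0.53 to 0.70 in DD subjective night.

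PGRP-SC2 was the member that passed the test between groups, and it was higher in the second night. Its values were 5.51, 5.88 and 5.58 in LD light and 5.66, 5.64 and 6.01 in LD dark. They were 5.64, 5.53 and 5.57 in DD subjective day and 5.93, 6.09 and 6.11 in DD subjective night. All 3 subjective-night arrays were above all 3 subjective-day arrays, a separation that 7.96% of probe sets showed in that direction. ZT22 and ZT6 were the highest arrays outside that night. The subjective day was lower than the subjective night by 0.46 on the log2 scale (5.58 ± 0.06 against 6.04 ± 0.10, SD, n = 3 arrays each; difference -0.46, SE 0.107, limma adjusted p = 0.0468).

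That call sat close to the threshold, which 1.34% of all probe sets passed in the same direction and 1.39% in either. It was lost without ZT10 (adjusted p = 0.0605), ZT18 (0.0532), CT2 (0.135), CT6 (0.195), CT10 (0.0915), CT14 (0.0708), CT18 (0.202) or CT22 (0.155), with differences between -0.52 and -0.43. The body-tissue score was also highest in the DD subjective night, at 0.53 to 0.70 against 0.23 or less in the other groups. Its lists were chosen with earlier results of these data known, so its correlation with PGRP-SC2 is not independent of the group difference. Over the 12 arrays PGRP-SC2 and the score had r = 0.80 (permutation p = 0.0026, adjusted over 28 relations 0.025) and Spearman's rho = 0.69 (p = 0.017, adjusted 0.16). The correlation was 0.71 within LD, 0.85 within DD and 0.66 without CT18 and CT22, the arrays farthest from the median of PGRP-SC2. With the score as a covariate the difference was -0.24 (SE 0.186, adjusted p = 0.991). Of the 23 midgut genes, 15 were lower in the subjective day and 0 higher, with a median of -1.36 against 0.003 over all probe sets. The part of gut or other body RNA in the PGRP-SC2 difference was not tested. In pooled tissue more cells of a type and more RNA per cell cannot be told apart.

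The comparisons across the days did not pass for PGRP-SC2. LD dark lay below DD subjective night by 0.27 (difference -0.27, SE 0.107, adjusted p = 0.383), at the same hours and both in darkness, and by 0.10 with the score as a covariate (difference -0.10, SE 0.161). In that comparison 0.2% of probe sets passed. The order of its group means was DD subjective night, LD dark, LD light and DD subjective day, and only the first step exceeded the larger SD of the pair. The day-night difference in LD minus that in DD was 0.35 (SE 0.151, adjusted p = 0.652), and 0.19 with the score.

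**Figure D1:**
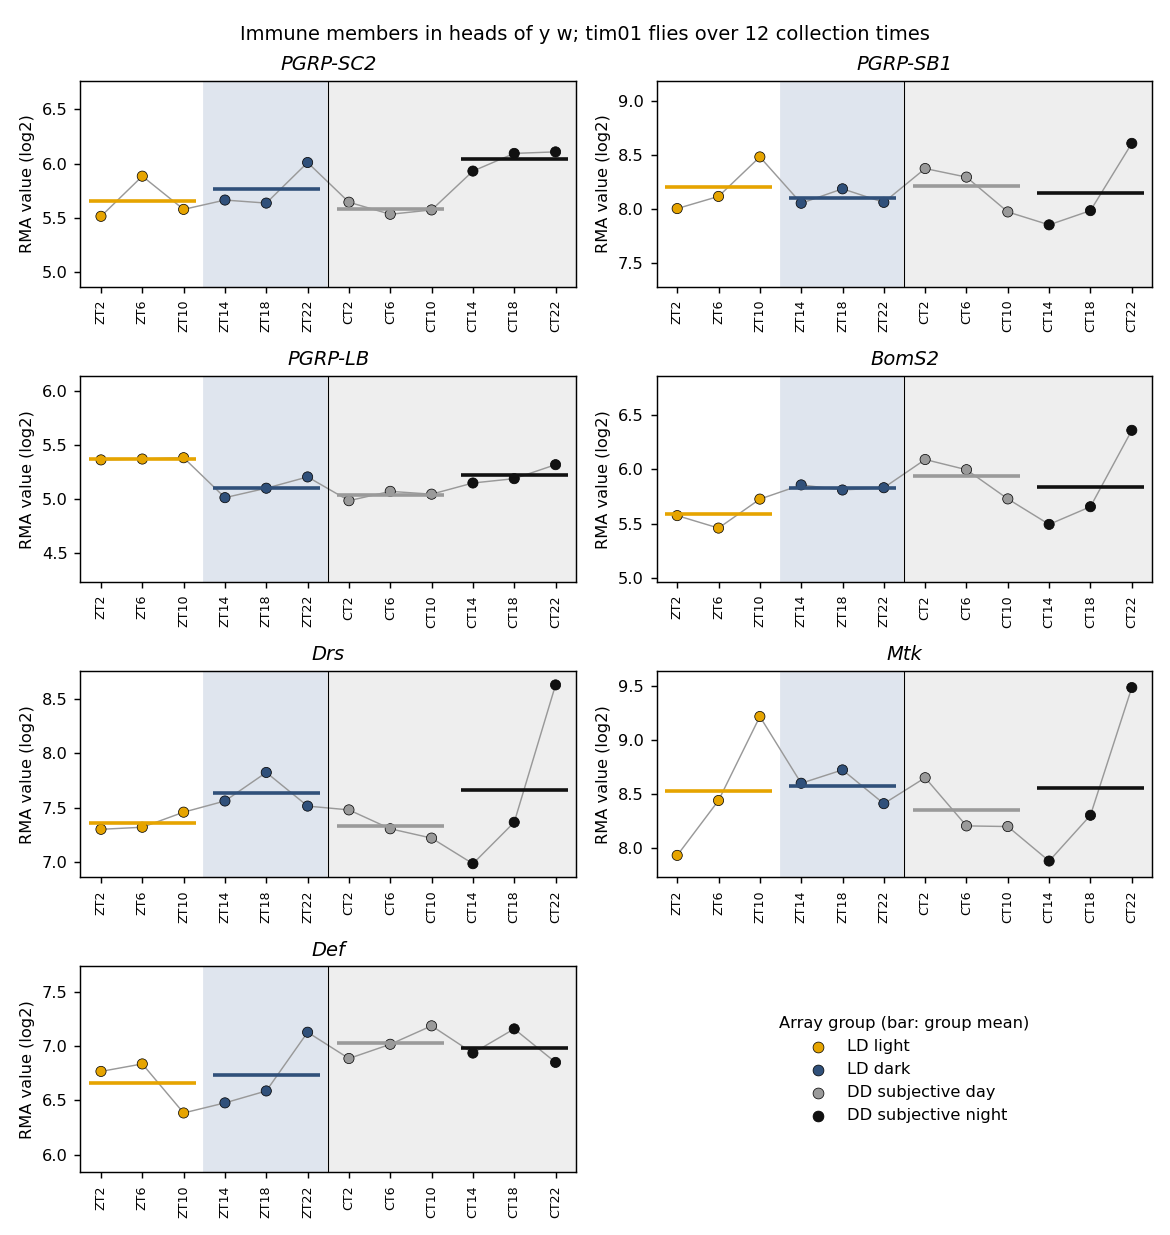
RMA values (log2) of the 7 members on each of the 12 arrays, in collection order. Points are arrays, horizontal bars are group means, blue shading marks the LD dark phase and grey shading constant darkness, and every panel spans the same number of log2 units. Drs and Mtk reach 8.63 and 9.48 at CT22, and the 3 LD light arrays of PGRP-LB lie between 5.36 and 5.38, above all arrays taken in darkness.

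PGRP-LB, an amidase that limits Imd signalling, was highest in light. Its values were 5.36, 5.37 and 5.38 at ZT2, ZT6 and ZT10, and 5.01, 5.10 and 5.20 in the LD dark phase. In constant darkness they were 4.99, 5.07 and 5.05 by subjective day and 5.15, 5.19 and 5.32 by subjective night. The 3 lit arrays were above all 9 arrays taken in darkness, which 1.37% of probe sets also showed. Within darkness ZT22 was the highest array of its night, and so was CT22.

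None of the differences of PGRP-LB passed after adjustment. LD light exceeded LD dark by 0.26 (SE 0.068, limma adjusted p = 0.39), the only member with an unadjusted p under 0.05 there, against 7.12% of probe sets. LD light exceeded DD subjective day at the same hours by 0.34 (SE 0.068, adjusted p = 0.182). In DD the subjective day minus night difference was -0.18 (SE 0.068, adjusted p = 0.34). The day-night difference in LD minus that in DD was 0.45 (SE 0.096, adjusted p = 0.328). The whole LD day lay above the whole DD day by 0.11 (SE 0.048, adjusted p = 0.419). Its group means ran from LD light through DD subjective night and LD dark to DD subjective day, and the last step lay within the larger SD. With the body-tissue score as a covariate the light-dark difference in LD was 0.30 and the difference from DD subjective day 0.35. The DD day-night difference fell to -0.07 (SE 0.127) with the score and -0.02 (SE 0.102) with a trend over collection hours, and the difference of day-night differences was 0.37 and 0.45.

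**Figure D2:**
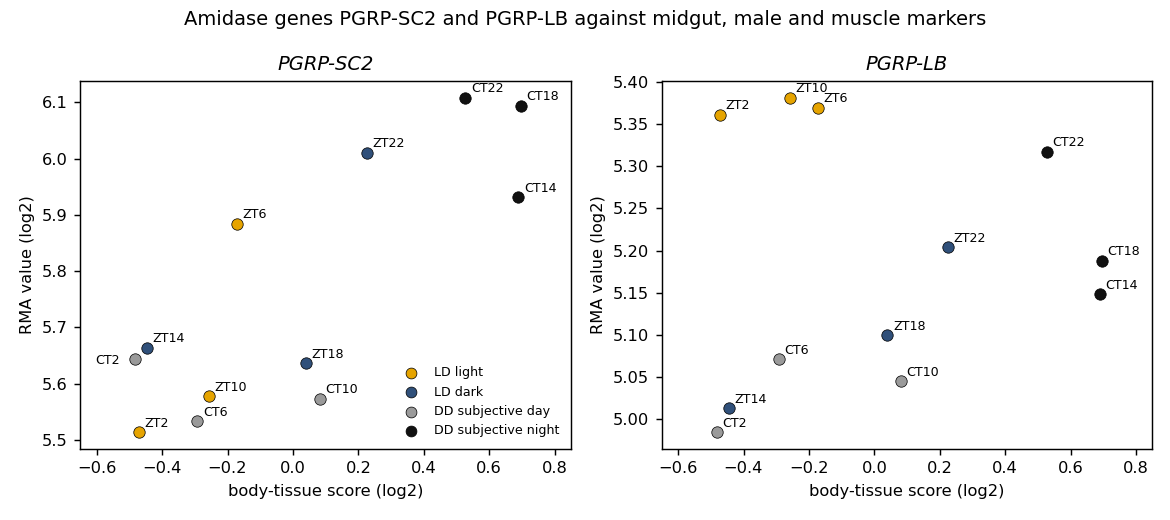
RMA values (log2) of PGRP-SC2 (left) and PGRP-LB (right) against the body-tissue score (log2), with 1 labelled point per array, coloured by group. PGRP-SC2 is highest on the arrays of the DD subjective night, where the score is 0.53 or more, and the 3 lit arrays of PGRP-LB lie at 5.36 or above at scores from -0.47 to -0.17.

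PGRP-SB1, the remaining amidase gene, did not separate the groups and instead peaked on single arrays. It stood at 8.005, 8.12 and 8.48 in LD light, at 8.05, 8.19 and 8.06 in LD dark, at 8.37, 8.29 and 7.97 in DD subjective day and at 7.86, 7.99 and 8.61 in DD subjective night. CT22 and ZT10 were its highest arrays and CT14 its lowest, so the highest and the lowest value fell in the same group. The largest gap between neighbouring group means was 0.05, and every gap lay within the SD of the groups. Its smallest p in a group contrast was that of LD light against LD dark, with a difference of 0.10 (SE 0.165, limma adjusted p = 0.924).

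The peptide genes Drs and Mtk had the widest ranges. Drs had values of 7.30, 7.32 and 7.46 in LD light, 7.56, 7.82 and 7.51 in LD dark, 7.48, 7.31 and 7.22 in DD subjective day and 6.98, 7.37 and 8.63 in DD subjective night. From its lowest array, CT14, to its highest, CT22, drosomycin RNA spanned 1.65, a 3.13-fold difference, and 99.4% of probe sets had a smaller range. CT22 exceeded the next array, ZT18, by 0.81. The LD dark arrays were all above the LD light arrays, as for BomS2, a separation found in 5.46% of probe sets, but the difference of -0.27 (light minus dark, SE 0.271, limma adjusted p = 0.864) did not pass.

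Mtk stood at 7.93, 8.44 and 9.21 in LD light and at 8.60, 8.72 and 8.41 in LD dark. It stood at 8.65, 8.21 and 8.20 in DD subjective day and at 7.88, 8.30 and 9.48 in DD subjective night. Metchnikowin RNA thus had 2 high arrays, ZT10 and CT22, and 2 low ones, ZT2 and CT14, with the extremes of a 3.03-fold range inside 1 group. The largest gap between neighbouring group means was 0.18, less than the SD of 0.645 in LD light.

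Group contrasts of Drs and Mtk depended on CT22. Subjective day minus night was -0.33 for Drs (SE 0.271, limma adjusted p = 0.801) and -0.20 for Mtk (SE 0.33, adjusted p = 0.918). Without CT22 these became 0.16 and 0.26.

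BomS2, a Toll-induced Bomanin, was at 5.57, 5.46 and 5.73 in LD light and at 5.86, 5.81 and 5.83 in LD dark. In DD it was at 6.09, 5.997 and 5.73 by subjective day and at 5.49, 5.66 and 6.36 by subjective night. The 3 LD light arrays were therefore below the 3 LD dark arrays, while ZT10 and CT10 were level. LD light minus DD subjective day was -0.35 (SE 0.163, limma adjusted p = 0.659), and LD light minus LD dark was -0.25 (SE 0.163, adjusted p = 0.786). The order of its group means was DD subjective day, DD subjective night, LD dark and LD light, and only the step to LD light exceeded the larger SD.

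Def had its low array where Mtk had a high one. Defensin RNA was at 6.77, 6.84 and 6.38 in LD light, 6.48, 6.59 and 7.13 in LD dark, 6.89, 7.02 and 7.19 in DD subjective day and 6.94, 7.16 and 6.85 in DD subjective night. Its lowest array, ZT10, was one of the high arrays of Mtk and PGRP-SB1, and CT22 was the lowest of its DD arrays. The LD mean was 6.70 ± 0.27 and the DD mean 7.01 ± 0.14 (SD, n = 6 arrays each), and the days overlapped through ZT22. LD minus DD was -0.31 (SE 0.108, limma adjusted p = 0.309). LD light minus DD subjective day was -0.37 (SE 0.152, adjusted p = 0.608).

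**Figure D3:**
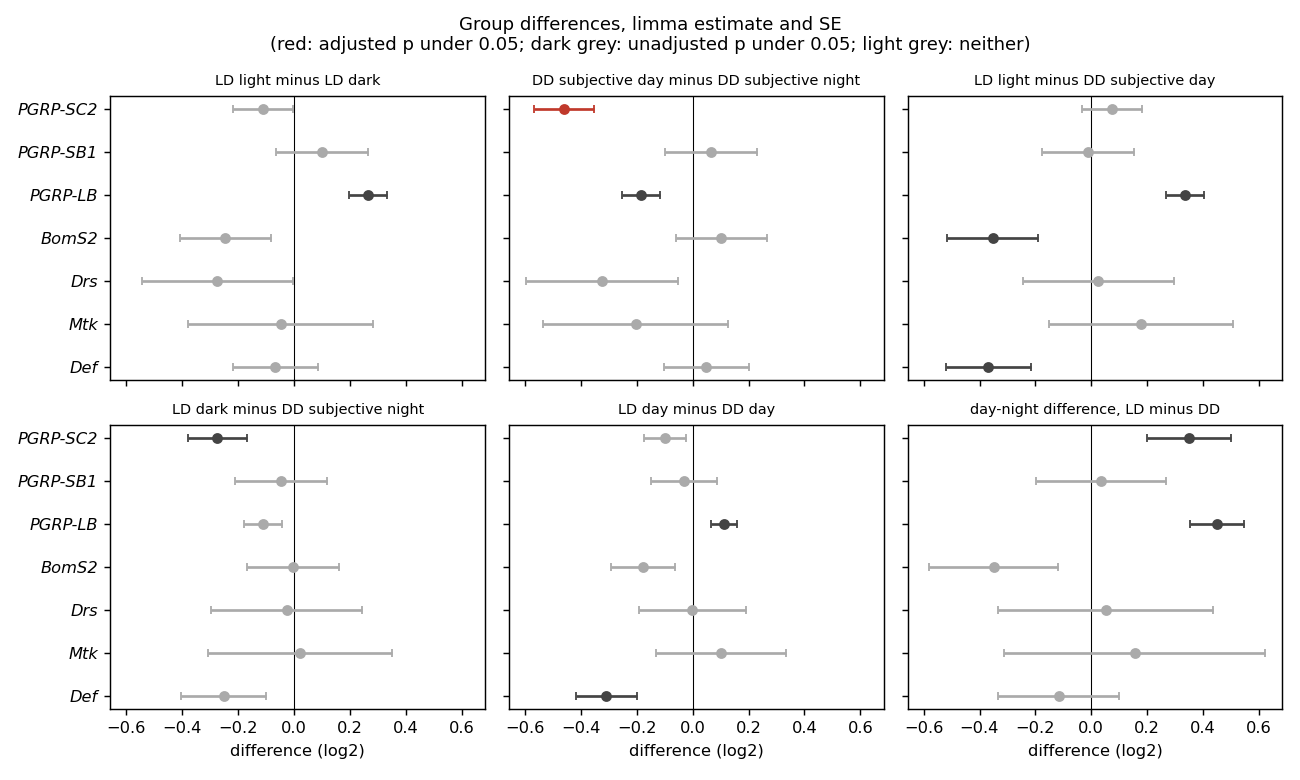
Differences (log2) of the 7 members in the 6 group contrasts, as limma estimates with their SE. PGRP-SC2 in the DD subjective day minus night is the only red point, at -0.46. The points of PGRP-LB in LD light minus LD dark (0.26) and LD light minus DD subjective day (0.34) are dark grey, which marks an unadjusted p under 0.05.

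Counted over the contrasts, 1 of 7 members passed in DD subjective day against night and 0 of 7 in each of the other 5 by limma. Among all probe sets the share that passed was 0.0286% in LD light against dark, 0.2% in LD dark against DD subjective night and 0.0215% in LD against DD. It was 0% both in LD light against DD subjective day and in the difference of day-night differences. At an unadjusted p under 0.05 the members numbered 2 of 7 in DD subjective day against night (9.04% of all probe sets), 3 in LD light against DD subjective day (7.51%), 1 in LD dark against DD subjective night (9.7%), 2 in LD against DD (10.8%) and 2 in the difference of day-night differences (7.34%). The median difference of the members lay between -0.18 and 0.05 over the 6 contrasts, against 0.003 to 0.03 for all probe sets.

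The last array of the time course, CT22, carried the highest value of 5 of the 7 members, PGRP-SC2, PGRP-SB1, BomS2, Drs and Mtk. Over all probe sets 4.77% were highest there. PGRP-SC2 exceeded its next array, CT18, by only 0.014. PGRP-SB1, BomS2, Drs and Mtk were correlated with each other over the 12 arrays (r from 0.65 to 0.87), and less so without CT22 (0.37 to 0.78). Their high values at CT22 come from 1 array of 1 pool of heads, so they are not separate observations. CT14 carried the lowest value of 3 members, PGRP-SB1, Drs and Mtk, against 9.69% of probe sets. From CT14 to CT22 the peptide genes Drs, Mtk and BomS2 went from low to high within a single group of 3 arrays, and a comparison of group means does not show this. CT22 had a body-tissue score of 0.53, the lowest of that night, and CT14 had 0.69.

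A 24 h cosine curve fitted to the 6 DD arrays had large amplitudes for most members. Amplitude means how far the fitted peak lies above the curve's mean. The arrays cover a single cycle, so the fit cannot show that a change repeats. The curve also joins CT22 to CT2, although CT2 was collected first. By limma's F test 0 of 7 members passed after adjustment, with 0.78% of probe sets passing, and 5 of 7 had an unadjusted p under 0.05, against 11% of probe sets. The median amplitude of the members was 0.34, against 0.08 for all probe sets. Members and lists were chosen with earlier results of these data known, so their comparisons with all probe sets are not independent of that choice. BomS2 came nearest, at 0.37 (SE 0.068, limma adjusted p = 0.0525), and its fitted curve peaked at hour 1.1. PGRP-SB1 had 0.34 (SE 0.075, adjusted p = 0.109) with a peak at hour 0.9. Drs and Mtk had 0.58 and 0.60 (adjusted p = 0.172 and 0.181) with peaks at hours 22.8 and 23.2. PGRP-SC2 had 0.33 (adjusted p = 0.15), with an earlier peak at hour 18.8, and its amplitude was 0.18 with the body-tissue score and 0.15 with the trend. Without CT22 the amplitudes were 0.29 for BomS2, 0.27 for PGRP-SB1, 0.22 for Drs and 0.33 for Mtk, and BomS2 then passed (adjusted p = 0.036).

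In LD the same curve passed for 0 of 7 members (0.0644% of probe sets), and 4 of 7 had an unadjusted p under 0.05 against 8.94% of probe sets. For Mtk and BomS2 the fitted peak hour in LD was not the one in DD, which was 23.2 and 1.1. No member curve passed in either day, so these hours are uncertain. Def had an amplitude of 0.30 (SE 0.076, limma adjusted p = 0.366) with a peak at hour 0.1, and PGRP-LB of 0.18 (SE 0.054, adjusted p = 0.442) with a peak at hour 5.0. Mtk had 0.43 with a peak at hour 12.6, from 0.30 without ZT10 to 0.66 without ZT14, and 0.58 with the score. BomS2 had 0.19 with a peak at hour 16.9. The difference of the harmonics between the days was not tested for these genes.

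Other antimicrobial and immune-induced peptides, 13 of 37 listed genes measured, included 3 Bomanins with a called DD curve, fitted to peak between hours 0.4 and 4.4. The DD curve passed for these 3 of the 13 and the LD curve for 0 by limma, against 0.78% and 0.0644% of all probe sets. At an unadjusted p under 0.05 there were 7 and 3, against 11% and 8.94%. The median amplitude in DD was 0.25, against 0.08 for all probe sets. BomBc3 (CG5791) had an amplitude of 0.40 (SE 0.059, limma adjusted p = 0.0209) with a peak at hour 0.4. BomS6 (CG15068) had 0.34 (SE 0.052, adjusted p = 0.0223) at hour 4.4, and BomBc2 (CG15067) had 0.31 (SE 0.05, adjusted p = 0.0275) at hour 1.5. BomS6 and BomBc2 had their highest value on CT2 and BomBc3 on CT22. The fitted peaks of BomBc3 and BomBc2 fell where the curve joins CT22 to CT2, and no array was taken there. The count was 0 without CT2, CT6 or CT14, 1 without CT10 (BomS6) or CT18 (BomBc3) and 3 without CT22 (BomBc3, BomS6 and BomS5), and it was 1, BomBc3, with the body-tissue score as a covariate. Probes of Bomanin genes may share signal, and this was not tested. In the 6 group contrasts 0 of the 13 passed by limma, where at most 1.39% of all probe sets did. At an unadjusted p under 0.05 there were 1 to 4 per contrast, against 7.12% to 10.8% of probe sets. The median of DD subjective day minus night was 0.11, against 0.003 for all probe sets. BomS6 was higher in that subjective day by 0.44 (SE 0.115, limma adjusted p = 0.0865).

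DptB, which encodes the Imd-dependent peptide diptericin B, had the 2 high arrays of Mtk. It stood at 7.998 at ZT10 and 8.15 at CT22, and between 6.71 and 7.20 on the other arrays. Its DD curve did not pass. IM33 ranged over 0.35, and CecB over 0.26 at values between 2.65 and 2.91, near the arrays' lower quartiles of 2.88 to 2.97. In all, 3 of the 13 peptides were highest on CT22, against 4.77% of probe sets, and 3 on CT2, against 4.42%. AttD and Drsl6 had their lowest values on CT22, at 3.60 and 4.06.

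**Figure D4:**
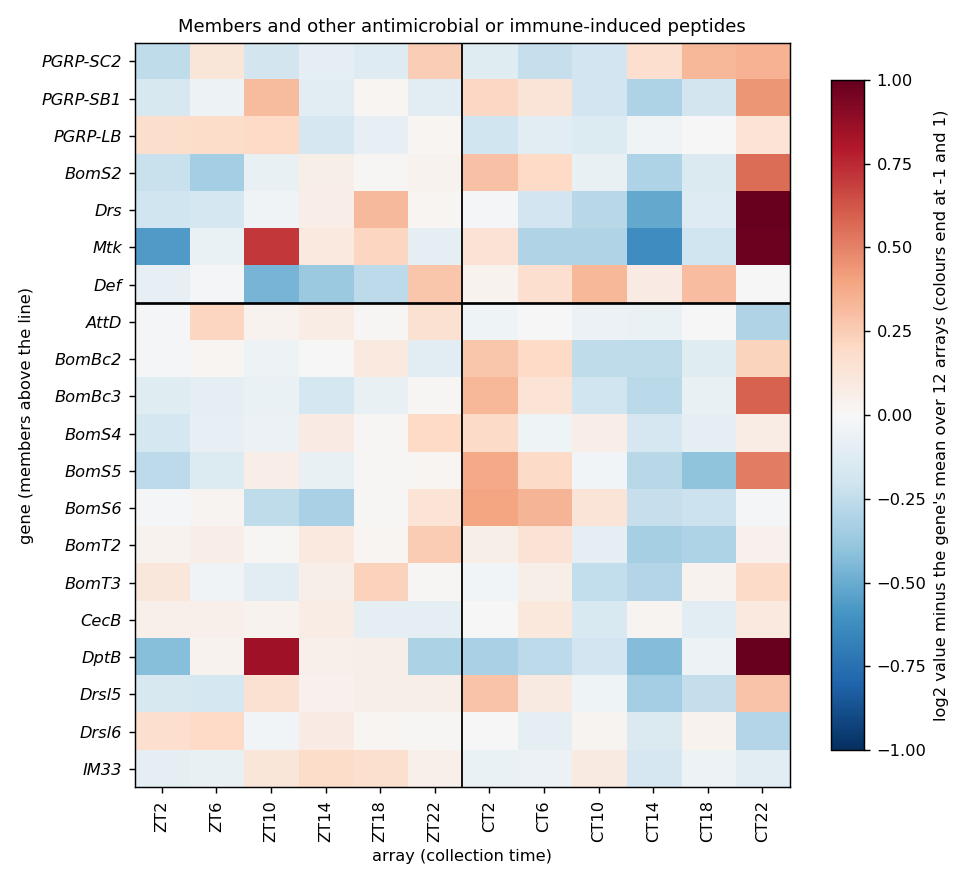
Values of the 7 members (above the line) and 13 other measured peptide genes on the 12 arrays, each as its log2 value minus the gene's mean, with colours ending at -1 and 1. Red fields at CT22 include Drs, Mtk, DptB, BomS2 and BomBc3, and red fields at ZT10 mark Mtk and DptB.

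Joint movement of the members was described over the 12 arrays, with 28 relations in the family and permutation p-values that treat the arrays of a time series as exchangeable. Mtk and PGRP-SB1 had r = 0.87 (permutation p = 0.0003, adjusted 0.0084) and Spearman's rho = 0.83 (p = 0.0013, adjusted 0.019), with 0.90 within LD, 0.88 within DD and 0.62 without ZT10 and CT22. For Drs and Mtk the correlation was 0.82 (Pearson, permutation p = 0.0012, adjusted 0.017) and 0.87 (Spearman, permutation p = 0.00055, adjusted 0.015). Pearson's r was 0.43 within LD, 0.98 within DD and 0.56 without CT14 and CT22. BomS2 and PGRP-SB1 had a Pearson's r of 0.75 (permutation p = 0.0049, adjusted 0.028) and a Spearman's rho of 0.60 (p = 0.044, adjusted 0.21), with 0.09 within LD and 0.99 within DD, so it did not hold within LD. It was 0.77 without ZT10 and CT22. BomS2 and Drs had a Pearson's r of 0.77 (permutation p = 0.005, adjusted 0.028) and a Spearman's rho of 0.64 (p = 0.03, adjusted 0.17), with 0.75 within LD, 0.85 within DD and 0.52 without CT2 and CT22.

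Not all pairs moved together in both days. BomS2 with Mtk had r = 0.65 (permutation p = 0.024, adjusted 0.097) and Spearman's rho = 0.52 (p = 0.089, adjusted 0.28), with 0.39 within LD, 0.89 within DD and 0.31 without CT2 and CT22. PGRP-SB1 with Drs had r = 0.71 (permutation p = 0.0071, adjusted 0.033) and Spearman's rho = 0.64 (p = 0.028, adjusted 0.17), with 0.16 within LD, 0.84 within DD and 0.52 without ZT10 and CT22. PGRP-LB with Drs had r = 0.18 (permutation p = 0.63, adjusted 0.84) and Spearman's rho = -0.03 (p = 0.92, adjusted 0.96), with -0.75 within LD, 0.68 within DD and 0.33 without ZT6 and ZT10. Def had r = -0.48 with Mtk (permutation p = 0.11, adjusted 0.34) and Spearman's rho = -0.54 (p = 0.074, adjusted 0.28), with r at -0.62 within LD and -0.54 within DD, and -0.41 without ZT10 and CT22. PGRP-SC2 with Mtk had r = 0.19 (permutation p = 0.57, adjusted 0.79) and Spearman's rho = 0.28 (p = 0.38, adjusted 0.66), with r at -0.11 within LD and 0.40 within DD, and -0.16 without CT18 and CT22.

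Among 5734 genes with a mean above the median probe set, those whose 12 values were most like each member's were listed by Pearson's r. For Mtk they were DptB (0.91), PGRP-SB1 (0.87) and Drs (0.82). For PGRP-SB1 they were Mtk (0.87), the drosomycin-like gene Drsl5 (0.86) and BomS5 (0.85), and for BomS2 they were BomS5 (0.90), BomBc3 (0.89) and Drsl5 (0.87). Most neighbours of Mtk, PGRP-SB1 and BomS2 were peptide genes, and those of BomS2 included the Bomanins BomS5 and BomBc3, whose probes may share signal. Among the neighbours of the remaining members, Mtk was the only one from the peptide lists. For Drs they were lncRNA:CR31781 (0.91), Tsr1 (0.86) and Mtk (0.82), and without CT22 these fell to 0.63, 0.62 and 0.68. PGRP-SC2 was nearest to CG10912 (0.95), CG9568 (0.93) and Peritrophin-15a (0.92). PGRP-LB was nearest to CaBP1 (0.90), to CCT8, a subunit of the CCT chaperonin (0.88), and to ImpL2, a secreted protein that binds insulin-like peptides (0.86). Def was nearest to und (0.87), maf-S (0.82) and the protein kinase C gene Pkc53E (0.81).

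Among the pathway genes no call was made, in comparisons where at most 1.39% of all probe sets passed. Of 18 measured Imd pathway genes and 19 Toll pathway genes, 0 passed in any of the 6 contrasts or either harmonic by limma. At an unadjusted p under 0.05 the Imd genes numbered 0 to 3 per comparison and the Toll genes 0 to 2, against 7.12% to 11% of all probe sets. In DD subjective day against night the median differences were -0.07 for Imd and -0.02 for Toll, against 0.003 for all probe sets. Named as the smallest p-values, pirk, an inhibitor of Imd signalling, was at -0.17 in that contrast (SE 0.06, adjusted p = 0.313), followed by Fadd (-0.15) and scny (-0.17). The Toll adaptor gene tub was higher in LD dark than in DD subjective night by 0.28 (SE 0.069, adjusted p = 0.114), and SPE, the protease that activates the Toll ligand Spätzle, lower by 0.23 (difference -0.23, SE 0.066, adjusted p = 0.204). In LD against DD the values were -0.17 for SPE, 0.14 for tub and 0.13 for Pli.

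Other recognition genes were measured in part. PGRP-LA, PGRP-LE, PGRP-LF and PGRP-SB2, 4 of 8 listed names measured, had 0 calls and 0 unadjusted p-values under 0.05 in any comparison by limma. Of all probe sets at most 1.39% were called per comparison, and 7.12% to 11% had an unadjusted p under 0.05. PGRP-LA was higher in DD subjective day than night by 0.10 (SE 0.072, adjusted p = 0.751). Of the other immune genes, 6 of 17 were measured and 0 passed. At an unadjusted p under 0.05 they numbered 0 to 2 per comparison. The transcription factor gene Stat92E was at -0.22 in LD light minus LD dark (SE 0.08, limma adjusted p = 0.607). It was at -0.11 in LD against DD (SE 0.056, adjusted p = 0.501).

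Markers of head fat body and of hemocytes were set beside the members. The 8 measured head fat body genes of 10 had list medians (log2, centred) from 0 to 0.07 in LD light, 0.01 to 0.02 in LD dark, -0.13 to 0.03 in DD subjective day and -0.08 to 0.01 in DD subjective night. Of the fat body genes Lsp2, which encodes a storage protein, had a called LD curve, as 0.0644% of all probe sets did. Its amplitude was 0.48 (SE 0.064, limma adjusted p = 0.0312), with a peak at hour 7.2. Its LD light minus LD dark difference was 0.64 (SE 0.106, adjusted p = 0.0597). The 11 measured hemocyte genes of 12 had medians from -0.02 to 0.02, -0.04 to 0.07, -0.10 to 0.01 and 0.01 to 0.07 in the same order, and of them eater (mean 2.71) and Sr-CI (2.56) were under all arrays' lower quartiles. In DD subjective day against night 0 genes passed in either list by limma, against 1.39% of all probe sets. The medians were -0.01 for head fat body and -0.09 for hemocytes, with 0 and 2 genes at an unadjusted p under 0.05, against 9.04% of probe sets. Over the 6 contrasts and 2 harmonics such genes numbered 0 to 2 for head fat body and 0 to 3 for hemocytes, against 7.12% to 11% of probe sets. The part of these tissues in the values at CT22 was not tested.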

How the data were processed

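Heads were profiled on 12 arrays. The log2 values were deposited by the authors, and RMA is the tool that the submitters' processing notes name. As a method, RMA subtracts background, equalises array distributions by quantiles and combines the probes of a set. The sources used here do not give its version or which arrays were processed together. The table held 14010 probe sets, and 13966 were tested after 44 controls were dropped. Names came from the platform annotation, and 12442 probe sets had 1 symbol. A gene with several probe sets is represented by the one with the highest mean. Group means were fitted to all 12 arrays with limma 3.58.1 in R 4.3.3 (with 8 residual degrees of freedom) for 6 contrasts. Cosine and sine terms of 24 h were fitted per day (6 residual degrees of freedom). Benjamini-Hochberg adjustment covered all probe sets, with a threshold of 0.05. The fits were tested on simulated data. Correlations used 100000 permutations. None of 66 array pairs was identical. Precision is limited by the number of arrays. Genes eligible to be named were all members, called genes of each pathway list or otherwise its 3 smallest p-values in 3 contrasts, and each member's 3 most similar genes. Not all are printed. DptB, IM33, CecB, AttD, Drsl6, BomS5 and the tissue markers were named after their values were seen. Alternatives covered normalization, the variance prior, a filter on low values, covariates, arrays used and a clock hour block. Members and lists were chosen with earlier results of these data known.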

Additional observations from a re-analysis of the deposited data

Results flagged for a closer look

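Of 14 sets of 6 arrays (7 members in LD and in DD), 1 had an array far from the rest by Dixon's test. The Drs value of 8.631 at CT22 stood apart from the other DD arrays, of which the nearest was CT2 at 7.48, with a gap of 0.699 of the whole range against a critical value of 0.625. Chance flags about 1 in 20 such sets. Mtk, BomS2 and PGRP-SB1 were also highest at CT22 without passing that limit.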

How the results depend on the processing

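The single member call, PGRP-SC2 in DD subjective day against night, was lost (count 0) with quantile normalization run again (difference -0.44, limma adjusted p = 0.078), median centring (-0.45, 0.0688), probe sets above the median mean only (-0.46, 0.0683), the body-tissue score as a covariate (-0.24, 0.991) and a trend over collection hours (-0.27, 0.941). It held with the trended robust prior (0.0391) and with only the DD arrays (0.0108). Leaving out single arrays gave counts from 0 to 1. The DD harmonic count of members, 0, became 1 (BomS2) with quantile normalization, median centring, the trended robust prior and the trend, and 1 (PGRP-SC2, adjusted p = 0.0257) with only the DD arrays. It ran from 0 to 2 without single arrays, with 2 without ZT2 (PGRP-SC2 and BomS2) and 1 (BomS2) without ZT22 or CT22. The count of 3 other peptides was 5 with quantile normalization or median centring and 1 with the score, and ran from 0 to 4 without single arrays. In the other comparisons the member count stayed at 0 under every alternative.

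With the trend, which is partly confounded with the phases and days, PGRP-SC2 in LD dark minus DD subjective night turned to 0.11, BomS2 in LD light minus DD subjective day to 0.12, Def in LD minus DD to 0.05, and Drs and Mtk in DD subjective day minus night to 0.24 and 0.64, with the cause not tested. Without CT22 the latter pair was at 0.16 and 0.26, with ranges over single arrays of -0.66 to 0.16 and -0.54 to 0.26. For PGRP-LB the trend gave 0.43 in LD light minus LD dark, 0.67 in LD light minus DD subjective day and 0.44 in LD minus DD, and Def in LD minus DD was at -0.07 with the score. Against 0.34 in the main fit, PGRP-LB in LD light minus DD subjective day was at 0.31 with quantile normalization and 0.30 with median centring. PGRP-SB1 in LD light minus LD dark turned to -0.04 without ZT10, within a range of -0.04 to 0.20 over single arrays. Each member had 1 probe set, so the choice among several did not arise. The labels carry no replicate numbers, so no replicate block was fitted. A block for clock hour, pairing LD and DD arrays of the same hour, changed no member call, with PGRP-LB at 0.34 (adjusted p = 0.276).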

Other observations

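Among the 9 arrays taken in darkness, a subset looked at after the data were seen, PGRP-LB followed the body-tissue score with r = 0.80 (exact permutation p = 0.01, adjusted over 7 members 0.058) and Spearman's rho = 0.82 (p = 0.011, adjusted 0.075). The correlation was 0.91 without CT14 and CT18. PGRP-SC2 had r = 0.81 there (exact permutation p = 0.017, adjusted 0.058; rho = 0.65, p = 0.067, adjusted 0.23; 0.75 without CT14 and CT18). Neither passed after adjustment. BomS2 and PGRP-SB1 had r = -0.33 and -0.26 (exact permutation p = 0.39 and 0.51, adjusted 0.69 and 0.71). Over all 12 arrays PGRP-LB and the score had r = 0.11 (permutation p = 0.73, adjusted 0.89), since the 3 lit arrays combined high values with scores below 0.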
